A study of Mus musculus with 17 samples.

Results

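The genes described are 10 inhibitors and feedback regulators of NF-kB, the transcription factor family that LPS activates in macrophages. They are Nfkbia, Nfkbib, Nfkbie, Nfkbiz, Nfkbid, Bcl3, Tnfaip3, Tnip1, Tnip3 and Cyld. Their loci were taken as every accessible site within 20 kb of the gene bodies, which gave 50 of the 34158 consensus sites of the genome. The rule that finds the sites uses gene names and positions and no measured value, although the genes themselves were picked with earlier results of these data known.

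Accessible chromatin had been mapped by ATAC-seq, in which a transposase cuts open DNA, in bone marrow-derived macrophages (BMDMs) of male C57Bl6/J mice aged 6 to 12 weeks. The cells were matured for 7 days in L929-conditioned medium, and were harvested at rest (0 h) or after 1 h or 18 h with LPS at 100 ng/ml. WT BMDMs gave 3 peak lists at 0 h, 2 at 1 h and 3 at 18 h, and Nur77-deficient (KO) BMDMs gave 3 at each time. The KO mice lack the nuclear receptor Nur77, encoded by Nr4a1, in the whole body through a loxP-flanked allele deleted by CMV-driven Cre. The Cre transgene was later bred out, although the genotype field of the labels reads cre for the KO samples, and the WT mice were littermates. One of the WT 1 h lists is named replicate 1-2 in the labels, and that name is kept. The sources used here do not say which lists came from separate animals, so the p-values measure the spread between lists, which may be technical.

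Resting macrophages hold NF-kB in the cytoplasm, bound to IκB proteins, of which Nfkbia (IκBα), Nfkbib (IκBβ) and Nfkbie (IκBε) encode the classical members. LPS acts through TLR4 to have these proteins phosphorylated and degraded, and the freed NF-kB induces genes that restrain it in turn. Among these are new IκBα, nuclear IκB proteins that tune the response at chromatin (Nfkbiz, Nfkbid, Bcl3), and proteins that edit or bind ubiquitin chains on the signalling complexes (Tnfaip3, also called A20, its partners Tnip1 and Tnip3, and the deubiquitinase Cyld).

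The sequences that follow are shown because they carry the promoters and introns on which the results turn, and they were read from the RefSeq copy of GRCm38 (mm10). Each is written 5′ to 3′ in the direction of the gene named, within 100 bp of the leading summit. The best summit of each list was taken, and the leading summit is the median position where most of these gather within 100 bp. Not every list has its best summit there. Transcribed untranslated sequence is left out. Coding exons were not left out, so a line named for an intron may run into an exon. Capitals mark a match to a searched motif, which is an NF-kB motif in the first 6 lines. Where the match lies on the strand opposite to the gene, the line shows its reverse complement, while the text below quotes the match as the motif reads.

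The Nfkbia promoter lies at chr12:55492648-55492767 on the minus strand, the Tnfaip3 promoter at chr10:19015411-19015531 on the minus strand, the Nfkbie intron at chr17:45557960-45558160 on the plus strand, the Tnip1 promoter at chr11:54962918-54963105 on the minus strand, the Bcl3 intron at chr7:19817538-19817738 on the minus strand and the Nfkbid promoter at chr7:30422169-30422369 on the plus strand.
Nfkbia promoter: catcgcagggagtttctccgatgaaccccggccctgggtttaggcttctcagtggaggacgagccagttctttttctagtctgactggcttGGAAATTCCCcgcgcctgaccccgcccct
Tnfaip3 promoter: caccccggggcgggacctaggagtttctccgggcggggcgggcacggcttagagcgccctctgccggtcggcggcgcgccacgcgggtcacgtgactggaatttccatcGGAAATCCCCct
Nfkbie intron: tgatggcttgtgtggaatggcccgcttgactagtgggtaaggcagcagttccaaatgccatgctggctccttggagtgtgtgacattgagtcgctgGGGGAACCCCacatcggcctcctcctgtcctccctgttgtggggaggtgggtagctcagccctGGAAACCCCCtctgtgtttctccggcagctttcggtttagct
Tnip1 promoter: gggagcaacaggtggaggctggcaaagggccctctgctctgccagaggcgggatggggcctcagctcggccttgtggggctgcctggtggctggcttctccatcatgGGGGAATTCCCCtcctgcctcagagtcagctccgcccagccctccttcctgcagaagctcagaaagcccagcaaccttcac
Bcl3 intron: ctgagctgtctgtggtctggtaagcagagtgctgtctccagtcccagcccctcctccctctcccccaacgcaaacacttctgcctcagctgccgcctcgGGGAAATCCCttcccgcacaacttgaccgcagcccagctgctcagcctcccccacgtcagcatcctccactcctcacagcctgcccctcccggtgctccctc
Nfkbid promoter: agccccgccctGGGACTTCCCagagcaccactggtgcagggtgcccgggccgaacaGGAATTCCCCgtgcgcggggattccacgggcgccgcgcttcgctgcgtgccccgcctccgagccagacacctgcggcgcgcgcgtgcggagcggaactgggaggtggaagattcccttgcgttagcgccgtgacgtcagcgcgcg

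The next sequences show a promoter that carries the motif without a called change (Cyld, chr8:88696804-88697004, plus strand), a promoter with both an NF-kB and a PU.1 match (Tnip3, chr6:65590227-65590397, plus strand; its first run of capitals is the PU.1 match on the other strand), an intron whose rank was best at 18 h and that held none of the searched motifs (Tnip1, chr11:54936501-54936701, minus strand), its neighbour with an AP-1 match (Tnip1, chr11:54934315-54934515, minus strand) and an intron with an AP-1 match whose rank fell (Tnip3, chr6:65585468-65585668, plus strand).
Cyld promoter: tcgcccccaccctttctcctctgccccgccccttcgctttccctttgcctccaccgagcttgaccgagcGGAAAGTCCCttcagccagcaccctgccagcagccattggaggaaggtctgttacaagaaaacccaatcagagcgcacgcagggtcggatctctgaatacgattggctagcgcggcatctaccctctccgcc
Tnip3 inner promoter: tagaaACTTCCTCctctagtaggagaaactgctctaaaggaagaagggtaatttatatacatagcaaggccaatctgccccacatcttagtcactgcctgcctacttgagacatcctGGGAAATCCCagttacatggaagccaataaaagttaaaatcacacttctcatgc
Tnip1 intron, 18 h: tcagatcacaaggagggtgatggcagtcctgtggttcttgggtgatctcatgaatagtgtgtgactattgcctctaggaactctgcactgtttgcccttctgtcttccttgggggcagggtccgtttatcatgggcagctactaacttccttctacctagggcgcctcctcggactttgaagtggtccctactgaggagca
Tnip1 intron, 1 h and 18 h: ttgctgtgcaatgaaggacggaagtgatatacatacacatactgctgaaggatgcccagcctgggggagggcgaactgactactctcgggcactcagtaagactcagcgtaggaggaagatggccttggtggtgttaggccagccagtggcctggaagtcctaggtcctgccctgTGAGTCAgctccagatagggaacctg
Tnip3 intron: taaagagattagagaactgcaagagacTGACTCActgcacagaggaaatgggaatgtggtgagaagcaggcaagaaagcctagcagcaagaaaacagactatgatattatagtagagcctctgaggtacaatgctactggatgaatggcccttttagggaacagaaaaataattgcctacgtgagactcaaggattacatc

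The lists differed widely in depth, from 0.382 to 9.75 background reads per kb as recovered from the peak statistics, and held 26558 to 92594 entries. Peak heights were therefore not compared. In each list the best 24389 peaks by p-value, the number in the shortest list, were kept and ranked, and a site was scored as −log2 of its rank divided by 24389. A rank score of 0 means no peak among that matched number, a gain of 1 means that the rank number halved, and the best possible score was 14.57. A rank is relative, so a site can also move because others move. In bulk cells, a larger share of cells with open DNA and wider opening in each cell cannot be told apart. WT 1 h replicate 1-2 was the shallowest list, and KO 18 h replicate 1 had a median peak width of 135 bp against 338 to 661 bp in the others. Promoters of 7 to 8 of 8 macrophage markers were open in every list, against 0 of 4 T cell, 0 to 1 of 4 B cell and 0 to 1 of 4 neutrophil markers, while 2 to 4 of 4 fibroblast and endothelial promoters held a peak. No list had a peak over the coding region of Nr4a1, so the deletion could not be checked from these lists.

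At 1 h of LPS, 18 of the 50 sites (36.0%) had risen in rank and 3 (6.0%) had fallen (limma on the rank score, Benjamini-Hochberg adjusted over all 34158 sites, adjusted p under 0.05). Over all sites 13.8% rose and 14.3% fell. The median difference was 0.18 over the 50 sites and −0.02 over all sites. The 3 classical IκB genes held 4 risen sites of 13, the 3 nuclear IκB genes 4 of 16, and the 4 ubiquitin regulators 10 of 21. Depth moved with time, from 0.72 to 9.75 background reads per kb at 0 h to 0.382 to 4.14 at 1 h and 1.1 to 8.38 at 18 h. With log2 depth as a covariate 16 sites were called at 1 h in place of 21.

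At 18 h, 7 of the 50 sites (14.0%) had risen against 0 h and 2 (4.0%) had fallen, where 10.9% and 12.8% of all sites did so. All 7 lay at Bcl3 (4), Tnip1 (2) and Tnfaip3 (1), and both fallen sites lay at Tnip3. The weakest of the Bcl3 sites, 5722 bp from the nearest TSS, rose by 0.29 (SE 0.09, limma adjusted p = 0.0277), did not pass in 8 of the 17 fits that each left out 1 list, and had an exact permutation adjusted p of 0.149. When KO 18 h replicate 1 was left out, 13 sites rose and 2 fell. Between 1 h and 18 h, 15 sites (30.0%) fell and 3 (6.0%) rose, against 15.2% and 13.8% of all sites. The risen count was 7 without KO 18 h replicate 1 and 1 without either WT 18 h replicate 3 or KO 1 h replicate 3. The comparisons with 0 h share the 0 h lists, and those with 1 h share the 1 h lists, so they are not independent.

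Some merged sites span several kb and hold several summits. They were split into 62 elements, merged windows of 250 bp on either side of each summit, whose ranks are counted separately. Of these 31 rose and 3 fell at 1 h, beside 14.2% and 14.9% of all 31850 elements. With log2 depth as a covariate 22 rose and 2 fell at 1 h. Of the 76 called element differences over all LPS comparisons, 18 did not pass with that covariate. At 18 h 10 rose and 3 fell, beside 9.98% and 13.4%. A region was kept when at least 2 lists held it, so one without a matched peak at 0 h could differ from 0 h only upwards. At 1 h this was so for 4 of the 18 risen sites and 12 of the 31 risen elements, of which 2 sites and 6 elements were matched at 1 h alone, and at 18 h for 2 of the 7 risen sites and 0 of the 10 risen elements. The regions matched at 1 h alone, or at 18 h alone, are described below without a test.

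**Figure D1:**
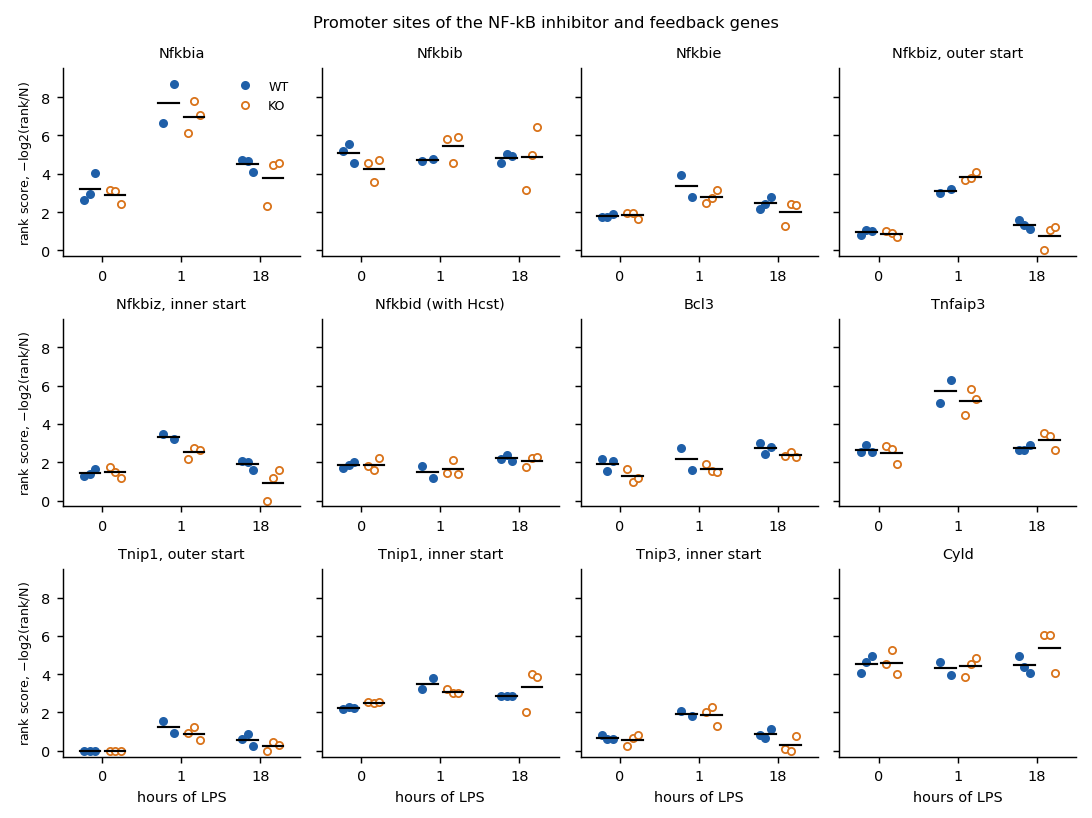
Rank score of each list (points; filled blue, WT; open orange, KO) at the 12 promoter sites of the 10 genes against hours of LPS, with black bars at the group means (n = 3 lists a group, 2 for WT at 1 h). N is the 24389 peaks kept in each list, and 0 means no peak among them. The 1 h points of Nfkbia, Tnfaip3 and the outer start of Nfkbiz lie above all their 0 h points, while Nfkbib, Nfkbid and Cyld show no such gap.

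Nfkbia had the largest rise of the 50 sites at 1 h. Its promoter site, chr12:55482731-55493792, runs over the whole gene, and its leading summit lies at −20 bp from the transcription start site (TSS). Resting WT BMDMs had it at ranks 3999, 3165 and 1494, and resting KO BMDMs at 2718, 2835 and 4535. After 1 h it stood at 240 and 58 in WT and 353, 110 and 186 in KO. After 18 h its ranks were 936, 950 and 1434 in WT and 4839, 1108 and 1030 in KO. All 5 lists at 1 h stood ahead of all others, and apart from KO 18 h replicate 1 the 18 h lists stood ahead of the 0 h lists. The score rose by 4.29 at 1 h (SE 0.50, limma adjusted p = 5.87e-06) and fell by 3.19 from 1 h to 18 h (SE 0.50, limma adjusted p = 0.000109). At 18 h the difference from 0 h was 1.09 with a 95% interval of 0.11 to 2.08, which did not pass (limma adjusted p = 0.103).

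The Nfkbia promoter sequence holds 1 NF-kB match, GGGAATTTCC on the plus strand, centred at −25 bp from the TSS. Downstream of the gene, an element whose summit lies at 7472 bp from the TSS held no matched peak at 0 h or 18 h and one in all 5 lists at 1 h, a difference of 0.46 in mean score. In the deposited lists it was called in 0 of 6 lists at 0 h, 5 of 5 at 1 h and 1 of 6 at 18 h, and with log2 depth as a covariate its difference was 0.27. The best ranked distal site of the locus, at 18636 bp from the TSS, differed by 0.25 at 1 h and −0.22 at 18 h, neither of which passed (limma adjusted p = 0.198 and 0.257). The 1 h difference was −0.18 in WT and 0.69 in KO. From 1 h to 18 h the site fell by 0.47 (SE 0.14, limma adjusted p = 0.0174). That fall did not pass without WT 1 h replicate 1-2 (−0.40, limma adjusted p = 0.0737) or with log2 depth as a covariate (−0.49, limma adjusted p = 0.0556).

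Nfkbib did not behave like Nfkbia at its promoter, which it shares with the divergent gene Sirt2. That site, chr7:28764643-28767380, was already well ranked at 0 h, at 678, 520 and 1050 in WT and 1052, 2096 and 920 in KO. With 1 h of LPS the ranks were 978 and 884 in WT and 434, 1036 and 406 in KO. With 18 h they were 1025, 744 and 811 in WT and 2770, 762 and 282 in KO. The ranks of the times overlapped, and the difference was 0.39 at 1 h and 0.17 at 18 h (limma adjusted p = 0.618 and 0.866). Inside the same merged site an intron element 1164 bp from the nearest TSS rose by 1.34 at 1 h (SE 0.24, limma adjusted p = 0.000434) and by 1.35 at 18 h (SE 0.22, limma adjusted p = 0.000316). Among elements it ranked 12846 to 22276 at 0 h, 4322 to 10860 at 1 h and 4655 to 8978 at 18 h, so no list with LPS overlapped the 0 h lists. It holds 1 AP-1 match. The leading distal site, in an intron of Sirt2, differed by −0.45 at 1 h (limma adjusted p = 0.275).

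Nfkbie rose at 1 h at its promoter, in an intron and at the next gene downstream. The promoter site, chr17:45554372-45559318, ranked 7237, 7246 and 6622 in WT and 6264, 6392 and 7714 in KO at 0 h. LPS for 1 h gave ranks of 1616 and 3568 in WT and 4404, 3683 and 2762 in KO, and 18 h gave 5443, 4484 and 3584 in WT and 10273, 4500 and 4714 in KO. Every 1 h list stood ahead of every 0 h list. The rise was 1.24 (SE 0.27, limma adjusted p = 0.00241), and 1.03 with log2 depth as a covariate, where it did not pass (limma adjusted p = 0.0546). 

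The Nfkbie intron element, whose summit lies 2349 bp from the nearest TSS, ranked 7952 and 7296 in WT and 9272, 5686 and 5562 in KO at 1 h. At 0 h only KO 0 h replicate 2 had a matched peak there, at rank 23678, although all 6 deposited lists at 0 h held one. It rose by 1.77 (SE 0.17, limma adjusted p = 7.04e-07) and fell by 1.49 from 1 h to 18 h (SE 0.17, limma adjusted p = 4.22e-06). The element holds 2 NF-kB matches, the nearer of them 1 bp from the summit.

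Behind the gene, the site at chr17:45562614-45570383 starts at the 3′ end of Nfkbie and covers the promoter of Slc35b2, with its summit at −13 bp from the Slc35b2 TSS. Its ranks were 1872 to 3078 at 0 h, 203 and 379 in WT at 1 h and 645, 668 and 1208 in KO at 1 h. It rose by 2.46 (SE 0.48, limma adjusted p = 0.00102). At 18 h the ranks ran from 294 to 2894 and overlapped both other times. The best ranked distal site, 27221 bp from the TSS, rose by 0.79 at 1 h (SE 0.23, limma adjusted p = 0.0162), or by 0.73 without WT 1 h replicate 3, where it did not pass (limma adjusted p = 0.0558). Nor did it pass with log2 depth as a covariate (0.76, limma adjusted p = 0.106).

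Nfkbiz encodes IκBζ, a nuclear IκB needed for secondary response genes such as Il6. Both of its promoters rose at 1 h. The outer start, chr16:55838176-55839491, ranked 13794, 11690 and 11938 in WT and 11921, 12838 and 15292 in KO at 0 h. After 1 h it had moved to 3059 and 2642 in WT and 1936, 1786 and 1421 in KO. At 18 h the ranks were 8146, 9826 and 11301 in WT, had no matched peak in KO 18 h replicate 1, and ranked 11750 and 10508 in the other KO lists. The 1 h ranks stood well clear of both other times. The rise was 2.55 (SE 0.22, limma adjusted p = 3.38e-07) and the fall from 1 h to 18 h was by 2.43 (SE 0.22, limma adjusted p = 4.93e-07), which left a difference of 0.12 at 18 h (limma adjusted p = 0.75). An NF-kB match, GGGAATTTCC, the same letters as at Nfkbia, is centred at −11 bp from this TSS.

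The inner start of Nfkbiz, chr16:55820499-55823103, ranked 7124 to 10715 at 0 h, 2228 and 2642 in WT at 1 h and 5452, 3683 and 3898 in KO at 1 h. It rose by 1.45 (SE 0.26, limma adjusted p = 0.000459) and held no NF-kB match near its summit. An intron site 2874 bp from the outer TSS had no matched peak at 0 h or 18 h and ranked 14418 to 18910 in the 4 lists at 1 h that held it, a difference of 0.47 in mean score. The best ranked distal site, 23095 bp from the nearest TSS, differed by 0.46 at 1 h and by 0.60 at 18 h, where the 95% interval excluded 0 but the adjusted value did not pass (limma adjusted p = 0.189 and 0.0754).

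Nfkbid, which encodes IκBNS, carried 2 NF-kB matches at its promoter, GGGACTTCCC and GGGGAATTCC, but no called rise. Its own promoter element ranked 10824 to 13118 among elements at 0 h, 7952 to 15159 at 1 h and 6414 to 11354 in the 5 lists at 18 h that held it. The ranks overlapped between times and the difference was 0.17 at 1 h and 0.17 at 18 h (limma adjusted p = 0.702 and 0.682). A second element at an inner start was matched in all 6 lists at 0 h and in none at 18 h, and fell by 0.64 at 18 h (SE 0.15, limma adjusted p = 0.0057). No deposited list at 18 h held a peak at it. The merged promoter site, chr7:30416926-30424213, is led by a summit in Hcst and differed by −0.30 at 1 h (limma adjusted p = 0.342). The distal site past the 3′ end was weak, with a matched peak in 7 of 17 lists and a difference of 0.06 at 1 h (limma adjusted p = 0.591).

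The largest fall of the 50 sites at 1 h was upstream of Nfkbid, at the promoter of Tyrobp, which encodes the immune adaptor DAP12. It lies at chr7:30411880-30414807 with its summit at −868 bp from the Tyrobp TSS. Its ranks were 5049 to 7714 at 0 h. It had no matched peak in WT 1 h replicate 1-2, and ranked 18626 in WT 1 h replicate 3 and 22685, 22688 and 23448 in KO. At 18 h it ranked 3640 to 6227. The fall of 1.81 at 1 h (SE 0.18, limma adjusted p = 1.18e-06) was followed by a rise of 2.11 from 1 h to 18 h (SE 0.18, limma adjusted p = 2.17e-07), and the 18 h lists overlapped the 0 h lists.

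Bcl3, whose protein binds NF-kB p50 and p52 homodimers in the nucleus, was the locus with the most risen sites at 18 h. The distal site with the best mean rank score of all 10 loci, chr7:19830251-19832746, has its summit at −8211 bp from the Bcl3 TSS. It ranked 2292, 2097 and 2228 in WT and 2602, 2943 and 3331 in KO at 0 h. LPS for 1 h placed it at 978 and 1374 in WT and 1806, 2994 and 2354 in KO. LPS for 18 h placed it at 796, 627 and 490 in WT and 1434, 1880 and 756 in KO. Every 18 h list stood ahead of every 0 h list, and the rise was 1.52 (SE 0.28, limma adjusted p = 0.000713). At 1 h the difference was 0.63 with a 95% interval of 0.01 to 1.25 (limma adjusted p = 0.124).

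The Bcl3 promoter site, chr7:19821799-19824815, ranked 5510, 8310 and 5854 in WT and 7850, 12308 and 10715 in KO at 0 h. The 1 h ranks were 3594 and 7974 in WT and 6390, 8384 and 8802 in KO, and the 18 h ranks 3014, 4484 and 3504 in WT and 4839, 4150 and 5024 in KO. The 18 h lists stood ahead of the 0 h lists, with a rise of 0.98 (SE 0.23, limma adjusted p = 0.00425). The 1 h lists overlapped both, with a difference of 0.32 (limma adjusted p = 0.349). Its leading summit lies at −1547 bp from the TSS beside 1 NF-kB match and 1 AP-1 match.

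An intron site of Bcl3, chr7:19815800-19819041, rose at both times, by 1.24 at 1 h (SE 0.22, limma adjusted p = 0.000393) and by 1.49 at 18 h (SE 0.21, limma adjusted p = 5.45e-05). It ranked 5291 to 10338 at 0 h, 2762 to 3868 at 1 h and 2385 to 3312 at 18 h, with no overlap of either LPS time with 0 h. The site splits into several elements. The element 5132 bp from the nearest TSS, which has the NF-kB match GGGATTTCCC at 3 bp from its summit, rose by 1.06 at 1 h (SE 0.27, limma adjusted p = 0.0067) and by 1.9 at 18 h (SE 0.25, limma adjusted p = 4.09e-05). With log2 depth as a covariate its 1 h difference was 0.95 (limma adjusted p = 0.0768). Its neighbour at 6300 bp rose by 1.22 at 1 h (SE 0.22, limma adjusted p = 0.000566) and differed by 0.41 at 18 h (limma adjusted p = 0.181). At 18 h that neighbour ranked 4470, 4800 and 4274 in WT and 12080, 8706 and 12283 in KO, and the genotype difference of the 18 h response was −1.30 (limma adjusted p = 0.578).

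**Figure D2:**
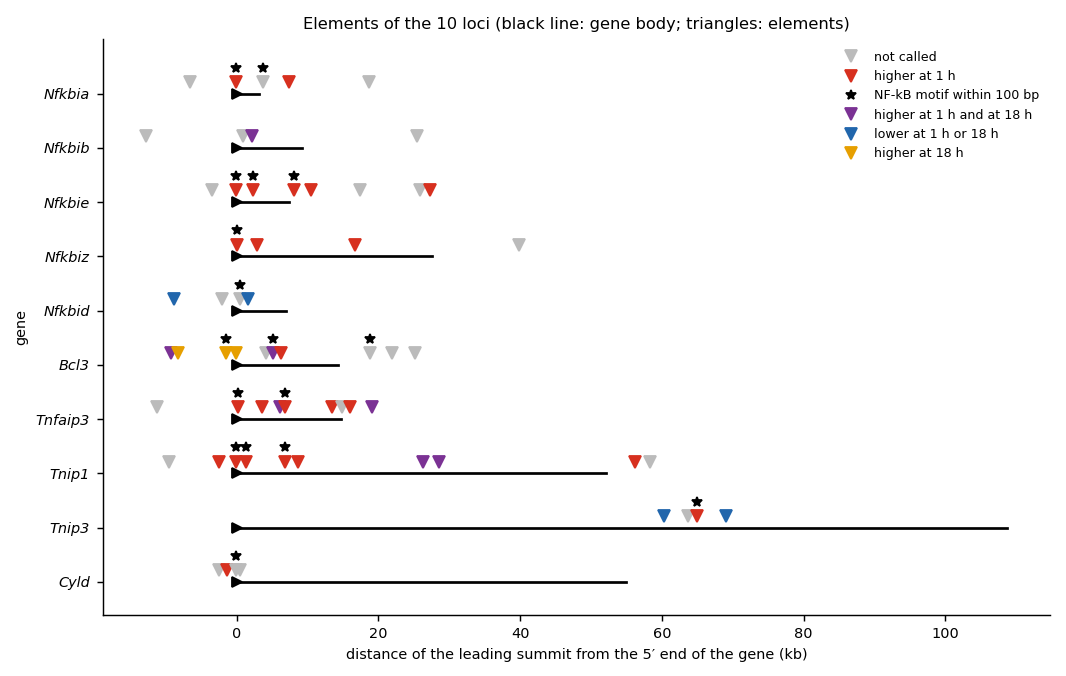
Elements of the 10 loci by the distance of their leading summit from the 5′ end of the gene (kb, in the direction of transcription). Black lines are gene bodies, triangles are elements coloured by their call against 0 h, and stars mark a match to the NF-kB motif within 100 bp of the summit. Of the 62 elements 17 carry a star, and those higher at 18 h lie at Nfkbib, Bcl3, Tnfaip3 and Tnip1.

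Tnfaip3 encodes the ubiquitin-editing enzyme A20, the best known brake on this pathway. All 3 of its sites were counted as risen at 1 h, the upstream one through 1 h lists alone. The promoter site, chr10:19006074-19016064, ranked 4244, 3273 and 4196 in WT and 3360, 3794 and 6560 in KO at 0 h. The 1 h lists gave 708 and 307 in WT and 1121, 436 and 614 in KO, and the 18 h lists 3974, 3860 and 3256 in WT and 2110, 2385 and 3938 in KO. The 1 h lists stood ahead of all others, while 18 h and 0 h overlapped. The rise was 2.88 (SE 0.33, limma adjusted p = 4.73e-06), the fall from 1 h to 18 h was by 2.5 (SE 0.33, limma adjusted p = 1.97e-05), and the 18 h difference was 0.38 (limma adjusted p = 0.406). The NF-kB match GGGGATTTCC is centred at −8 bp from the TSS.

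Inside and behind Tnfaip3 the elements differed in when they were high. An element behind the gene, 12336 bp from the nearest TSS, had no matched peak at 0 h, ranked 6660 and 4898 in WT and 11958, 12142 and 8572 in KO at 1 h, and was matched at 18 h only in KO 18 h replicate 2, at 22010. Its mean score was 1.64 higher at 1 h than at 0 h. This is given without a test, since the element was kept through its 1 h lists and could differ from 0 h only upwards. Deposited lists at 0 h did hold a peak there in 4 of 6 cases. An intron element 2423 bp from the nearest TSS rose by 1.26 at 1 h (SE 0.29, limma adjusted p = 0.00312) and by 1.2 at 18 h (SE 0.27, limma adjusted p = 0.00359). It ranked 8140 to 11553 at 0 h, 1878 to 7952 at 1 h and 2412 to 5138 at 18 h.

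The distal site behind Tnfaip3 as a whole, chr10:18993440-19005876, rose by 1.67 at 1 h (SE 0.27, limma adjusted p = 0.000166) and by 1.11 at 18 h (SE 0.25, limma adjusted p = 0.00376). With the best 10000 peaks of each list the 18 h difference was 0.27, which did not pass (limma adjusted p = 0.37). Its leading summit, 15417 bp from the nearest TSS, lies in an element with 1 AP-1 match that rose by 1.00 at 18 h (SE 0.24, limma adjusted p = 0.00624). The upstream site at −11207 bp was matched in 4 lists, all at 1 h, with a difference of 0.33 in mean score. The difference was 0.21 without WT 1 h replicate 1-2 and 0.14 with log2 depth as a covariate, and the site, counted among the risen, did not pass in 7 of the 17 fits that each left out 1 list.

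Tnip1 encodes ABIN1, a ubiquitin-binding partner of A20, and had 6 risen sites of 10 at 1 h, the most of any member. Its outer promoter, chr11:54961086-54963934, had no matched peak at 0 h. It was ranked at 1 h, at 8262 and 12996 in WT and 12902, 10441 and 16572 in KO, and stood at 18 h at 15748, 13474 and 20622 in WT, none in KO 18 h replicate 1 and 17942 and 20004 in the other KO lists. The rise at 1 h was 1.07 (SE 0.16, limma adjusted p = 7.84e-05). Matched absence was not a closed promoter, since 4 of 6 deposited lists at 0 h held a peak there. That rise is of the merged site, which holds 2 elements with NF-kB matches. The element printed above, with 3 overlapping matches inside its 12 capitals, rose by 0.40 at 1 h (SE 0.13, limma adjusted p = 0.0295). It did not pass in 8 of the 17 fits that each left out 1 list, where it ran from 0.31 to 0.51, nor with log2 depth as a covariate (0.34, limma adjusted p = 0.212). Without WT 1 h replicate 1-2 it was 0.32 (limma adjusted p = 0.144). The other element, with its summit 1260 bp from the TSS, rose by 0.71 at 1 h (SE 0.11, limma adjusted p = 7.61e-05).

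The inner promoter of Tnip1, chr11:54955320-54957441, was well ranked throughout. It ranked 4206 to 5456 at 0 h, 1778 to 3047 at 1 h and 1497 to 5924 at 18 h, with the 1 h lists ahead of every 0 h list. The rise of 0.92 at 1 h (SE 0.31, limma adjusted p = 0.0323) did not pass in 8 of the 17 fits that each left out 1 list, where it ran from 0.78 to 1.06, nor with log2 depth as a covariate (1.00, limma adjusted p = 0.106). Farther in, an intron site 1830 bp from the nearest TSS was unmatched at 0 h and ranked 8262 and 4971 in WT and 6848, 8384 and 3898 in KO at 1 h. It rose by 1.97 (SE 0.23, limma adjusted p = 5.93e-06).

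The intron site of Tnip1 at chr11:54932988-54937877 had the largest rise at 18 h of the 50 sites. It ranked 6532, 7328 and 7469 in WT and 7182, 6647 and 9065 in KO at 0 h. Its 1 h ranks were 1894 and 1558 in WT and 1264, 743 and 2762 in KO, and its 18 h ranks 1025, 2212 and 1694 in WT and 868, 1273 and 1304 in KO. No LPS list overlapped the 0 h lists, and the LPS times overlapped each other. The rise was 2.25 at 1 h (SE 0.32, limma adjusted p = 5.13e-05) and 2.46 at 18 h (SE 0.30, limma adjusted p = 1.92e-05).

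That Tnip1 site holds both intron sequences printed above. The one with an AP-1 match, 21632 bp from the nearest TSS, rose by 2.23 at 1 h (SE 0.32, limma adjusted p = 5.99e-05) and by 2.28 at 18 h (SE 0.30, limma adjusted p = 4.29e-05). The one with no searched motif, at 19446 bp, rose by 1.76 at 1 h (SE 0.32, limma adjusted p = 0.000558) and by 3.02 at 18 h (SE 0.30, limma adjusted p = 3.38e-06). Its rise from 1 h to 18 h was 1.26 (SE 0.32, limma adjusted p = 0.00703), and 0.93 without WT 1 h replicate 3, where it did not pass (limma adjusted p = 0.0574).

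**Figure D3:**
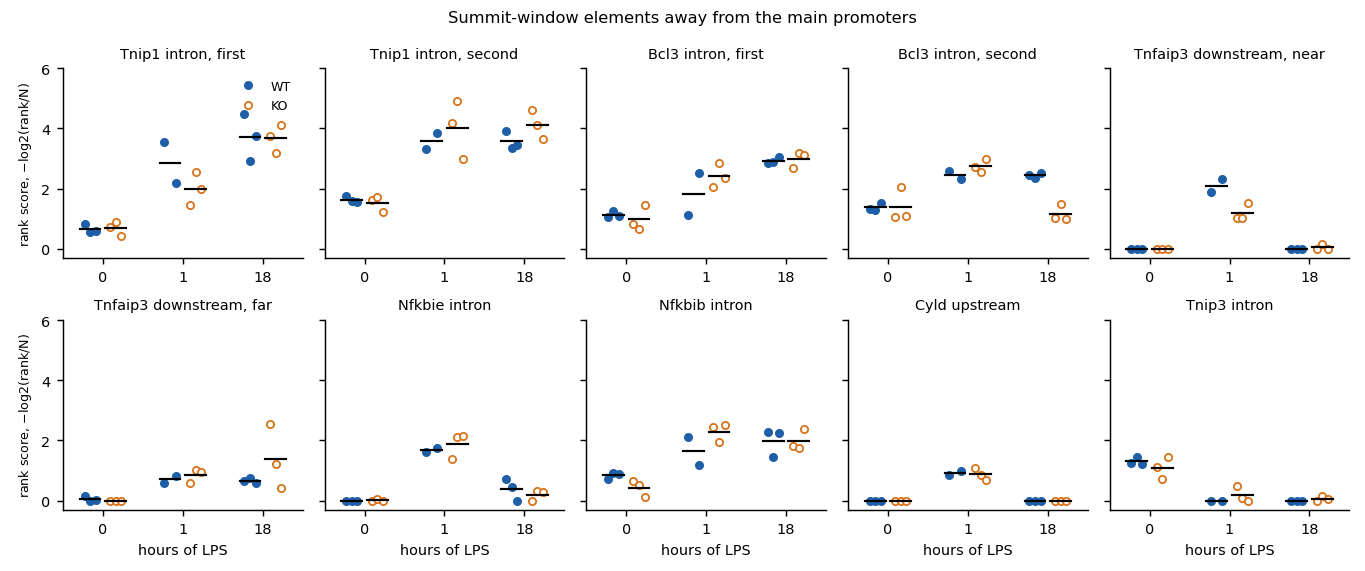
Rank score of each list (points; filled blue, WT; open orange, KO) at 10 elements against hours of LPS, with black bars at group means (n = 3 lists a group, 2 for WT at 1 h). N is the 24389 peaks kept in each list, and 0 means no peak among them. The first Tnip1 and Bcl3 intron elements are highest at 18 h, the Nfkbie intron, near Tnfaip3 and upstream Cyld elements at 1 h, and the Tnip3 intron element at 0 h.

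Tnip3 encodes ABIN3, a further A20-binding protein, and was the only member with sites both risen and fallen at 1 h. Its inner promoter, chr6:65589829-65591238, ranked 13646, 15700 and 16052 in WT and 20416, 15343 and 13956 in KO at 0 h. It moved to 5848 and 7044 in WT and 5956, 5022 and 9792 in KO at 1 h. The 18 h ranks were 13860, 15426 and 10988 in WT and 23089 and 14184 in KO, with no matched peak in KO 18 h replicate 2. The 1 h lists stood ahead of all others, with a rise of 1.27 (SE 0.21, limma adjusted p = 0.000196), and the 18 h difference was −0.05 (limma adjusted p = 0.918).

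An intron site of Tnip3 at −4825 bp from that inner TSS moved the other way. It ranked 9006, 8042 and 9400 in WT and 9940, 12838 and 7714 in KO at 0 h. At 1 h it had no matched peak in WT 1 h replicate 1-2 and ranked 22196 in WT 1 h replicate 3 and 15041, 19586 and 23448 in KO. At 18 h 3 of 6 lists held it, at 22303, 17942 and 20004. It fell by 1.17 at 1 h (SE 0.16, limma adjusted p = 3.11e-05) and by 1.24 at 18 h (SE 0.15, limma adjusted p = 1.68e-05), and no LPS list overlapped the 0 h lists. Among only the best 10000 peaks of each list the difference was −0.16 at both times (limma adjusted p = 0.0789 and 0.0842). A second site 3964 bp inside fell by 0.58 at 1 h (SE 0.17, limma adjusted p = 0.0177) and by 0.60 at 18 h (SE 0.16, limma adjusted p = 0.0118). Without WT 1 h replicate 1-2 its 1 h difference was −0.43 (limma adjusted p = 0.121), and with log2 depth as a covariate −0.51 (limma adjusted p = 0.142). Both fallen sites hold an AP-1 match.

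Cyld encodes a deubiquitinase that removes chains from the signalling complexes. Its promoter site, chr8:88695210-88697996, was well ranked at rest and did not pass the test at either time. It ranked 1484, 1000 and 790 in WT and 1064, 646 and 1515 in KO at 0 h, 978 and 1558 in WT and 1706, 1036 and 859 in KO at 1 h, and 786, 1164 and 1468 in WT and 376, 364 and 1487 in KO at 18 h. The times overlapped, and the difference was −0.21 at 1 h with a 95% interval of −1.08 to 0.67 (limma adjusted p = 0.795). At 18 h it was 0.36 with an interval of −0.47 to 1.19 (limma adjusted p = 0.563), which takes in a gain of over 1 in score. The printed promoter sequence carries the NF-kB match GGGACTTTCC, centred at −150 bp from the TSS.

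An element upstream of Cyld, at −1339 bp, had a matched peak in all 5 lists at 1 h and in none at 0 h or 18 h. It ranked 13590 and 12474 in WT and 11520, 13664 and 15121 in KO at 1 h, a difference of 0.89 in mean score. Deposited lists held a peak there in 4 of 6 cases at 0 h and 4 of 6 at 18 h. The leading distal site, at −2528 bp, had matched peaks at 18 h only, a difference of 0.52 in mean score, and was not among the called sites.

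NF-kB motifs were frequent at these loci. A match to the NF-kB motif was present within 100 bp of the leading summit in 17 of the 62 elements (27.4%), against 5.16% of all 31850 elements. Among elements whose interval reached within 1 kb of a TSS the counts were 13 of 26 against 4.14% of 11375, and among the rest 4 of 36 against 5.72% of 20475. The 13 include the Nfkbie intron element, the Tnip1 element with its summit at 1260 bp and the Bcl3 promoter element, whose leading summits lie more than 1 kb from the nearest TSS of their gene. Of the 31 elements that rose at 1 h, 12 held a match, and of the other 31, 5 did. Among all 4537 elements of the genome that rose at 1 h, 14.3% held one. A match is a run of letters, and no binding was measured here.

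The other motifs were nearer their genome-wide shares. AP-1 (TGACTCA or TGAGTCA) was present in 11 of 62 elements (17.7%) against 16.4% of all, PU.1 (GAGGAAGT) in 7 (11.3%) against 7.73%, and C/EBP (TTACNNAA or TTGCNNAA) in 6 (9.68%) against 16.8%. NBRE (AAAGGTCA), the motif bound by Nur77 as a monomer, was present in 0 of 62 against 1.01%. All motifs were sought on both strands. Of the 31 elements that rose at 1 h, 6 held an AP-1 match, while among all 4537 risen elements of the genome 31.8% did. AP-1 matches lay at elements that rose, as in the introns of Tnip1 and Nfkbib, and at both elements of Tnip3 that fell.

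**Figure D4:**
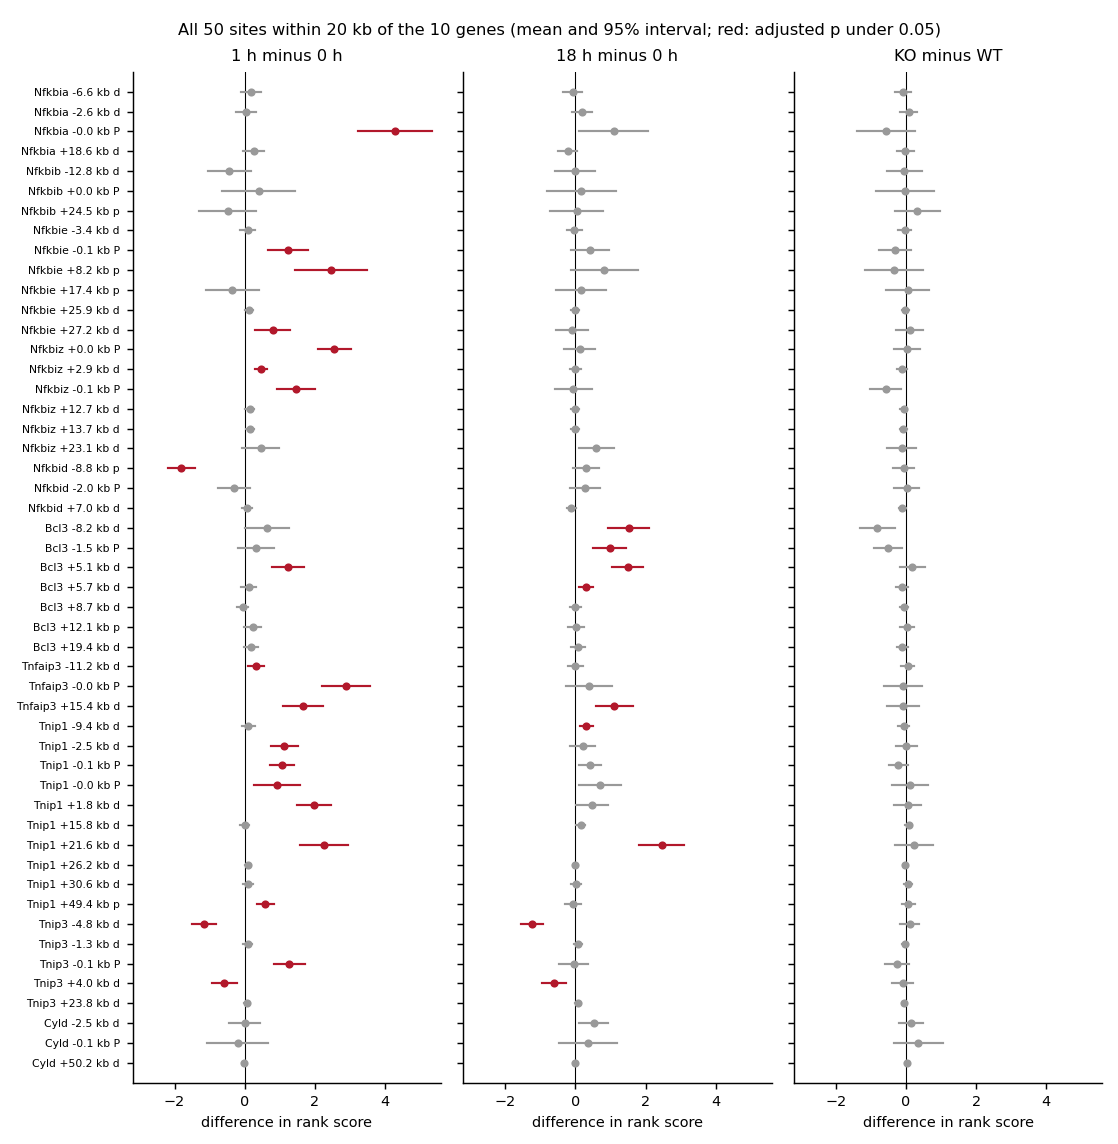
Difference in rank score with its 95% interval at each of the 50 sites for 1 h minus 0 h, 18 h minus 0 h and KO minus WT (mean over the 3 times). Labels give the gene, the distance of the leading summit from its nearest TSS and the class (P, promoter of the gene; p, promoter of another gene; d, distal), and red marks a limma adjusted p under 0.05. Red intervals are present for both LPS comparisons and absent for the genotype, whose differences run from −0.82 to 0.36.

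No difference between KO and WT BMDMs was detected at any of the 50 sites. For KO against WT over the 3 times 0 sites passed in limma (lowest adjusted p = 0.206), where 0.392% of all sites did, and 0 passed by the exact permutation test after adjustment. At an unadjusted p under 0.05, 3 sites passed in limma (6.0%, against 9.45% of all sites) and 3 in the permutation test, which gave 2387 of all 34158 sites. The differences ran from −0.82 to 0.36. At the 12 promoter sites the 95% intervals reached between 0.27 and 0.84 to either side. These are unadjusted intervals, and differences beyond them, as at the Bcl3 promoter and the inner start of Nfkbiz, did not pass after adjustment either. Of the 62 elements 0 passed for KO against WT (lowest limma adjusted p = 0.202), and 7 had an unadjusted limma p under 0.05. The shares over all elements were not counted for the genotype. Depth differed between the genotypes as well, most at 18 h, with 4.62 to 8.38 background reads per kb in WT and 1.1 to 1.76 in KO, and its part in the genotype differences at single sites was not tested beyond the fit with log2 depth as a covariate, which called 0 sites.

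The 3 sites at an unadjusted limma p under 0.05 were the distal and promoter sites of Bcl3 and the inner start of Nfkbiz, all lower in KO. The distal Bcl3 site differed by −0.82 with a 95% interval of −1.32 to −0.32 (limma adjusted p = 0.206, exact permutation p = 0.00075, adjusted 0.222). The Bcl3 promoter differed by −0.52 (limma adjusted p = 0.374). Without WT 1 h replicate 3, which leaves 1 WT list at 1 h, the difference was −0.71. The inner start of Nfkbiz differed by −0.58 (limma adjusted p = 0.354). At the Nfkbia and Tnfaip3 promoters KO minus WT was −0.57 with a 95% interval of −1.41 to 0.27, and −0.08 with one of −0.64 to 0.47.

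The LPS responses of the genotypes were compared directly. For the 1 h response 0 of the 50 sites differed between KO and WT in limma (lowest adjusted p = 0.402), where 0.0966% of all sites did, with 2 at an unadjusted p under 0.05 (4.0%, against 6.94% of all sites) and 3 by the permutation test, which gave 1232 of all 34158 sites. For the 18 h response the count in limma was 0 (lowest limma adjusted p = 0.803), where 0.00586% of all sites passed, with 0 at an unadjusted p under 0.05 in either test, where limma gave 6.35% of all sites and the permutation test 1230 of 34158. At the Nfkbia promoter the 1 h rise was 4.49 in WT and 4.08 in KO, a difference of −0.41 with a 95% interval of −2.5 to 1.68. At the outer start of Nfkbiz it was 2.13 in WT and 2.96 in KO, a difference of 0.84 with an interval of −0.11 to 1.78 (limma adjusted p = 0.764).

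Other genes of the pathway were counted in the same fit, to be read against the 13.8% of all sites that rose and the 14.3% that fell at 1 h, and the 10.9% and 12.8% at 18 h. Around the 5 NF-kB subunit genes (Rel, Rela, Relb, Nfkb1 and Nfkb2) 11 of 31 sites rose and 0 fell at 1 h, and 1 rose at 18 h. Around 10 kinase genes of the pathway, such as Ikbkb and Map3k7, 4 of 44 rose and 11 fell at 1 h, with 2 and 4 at 18 h. Around 12 genes of the receptor and its adaptors, such as Tlr4 and Myd88, 12 of 61 rose and 7 fell at 1 h, with 7 and 5 at 18 h. Around 15 partners in ubiquitin editing 9 of 66 rose (13.6%) and 9 fell (13.6%) at 1 h, which is near the share over all sites, with 14 and 4 at 18 h, and around 6 further feedback genes 7 of 39 rose and 2 fell at 1 h, with 10 and 3 at 18 h. No site of these lists passed for genotype, where 0.392% of all sites did, or for a genotype difference of the 1 h or 18 h response, where 0.0966% and 0.00586% did.

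Counted over the 10 loci together, WT lists held 32.7 ± 0.58 matched peaks at rest (SD, n = 3), 70.5 ± 20.5 after 1 h (n = 2) and 38.7 ± 2.52 after 18 h (n = 3). KO lists held 37.3 ± 5.77, 46.7 ± 12.2 and 45.3 ± 0.58 (n = 3 each). The deposited lists, not cut to a common number, gave another order, with 87 ± 4.36, 98.0 ± 18.4 and 85.0 ± 7.21 peaks in WT and 65.3 ± 25.7, 111 ± 13.5 and 66 ± 7 in KO at 0 h, 1 h and 18 h. The order of the genotypes was opposite in the matched and the deposited counts at each time, so no genotype difference is read from either. The highest matched count, 85 peaks, was in WT 1 h replicate 1-2, the shallowest list, and the part that depth plays in these counts was not tested.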

How the data were processed

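ATAC-seq peak lists of 17 BMDM libraries (8 WT, 9 KO) were used. According to the methods and tool notes, the authors trimmed reads with cutadapt 2.6, mapped them to mm10 and processed them with the snakeATAC pipeline, and used DiffBind 3.0.15. The aligner and the peak caller are not given in the sources used here. Names inside the lists point to a mapping quality of at least 20, removal of mitochondrial and duplicate reads and a q threshold of 0.001. The deposited columns hold −log10 p and −log10 q values, a fold enrichment over the local background, and a score equal to 10 times −log10 q, each made by the authors per library, with no normalization between libraries. ATAC-seq cut sites are usually shifted for the transposase, and whether this was done is not given in the sources used here.

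The lists held 1001519 entries in 808470 intervals, since a peak with several summits is listed several times. Intervals were collapsed to their best −log10 p, and the best 24389 of each list were ranked. Peaks with equal p-values shared a rank. Those tied at the last place kept made up at most 13.95% of a matched list. Ties at better ranks also occurred, and their share was not counted. In WT 1 h replicate 1-2, for example, the best ranked distal Nfkbia site and an Nfkbiz intron site both had rank 14418. Intervals that overlapped by at least 1 bp were merged, and merged sites with a peak in at least 2 lists were kept (34158). Depth was estimated from fold enrichment and −log10 p as background reads per kb, so no total read count was available. Rank scores were fitted in limma 3.58.1 (R 4.3.3) with trend and robust moderation over the 6 groups, LPS differences being averaged over genotypes, and Benjamini-Hochberg adjusted over all sites. An exact two-sided permutation test within strata was run beside it, whose smallest possible p is 0.00025 for KO against WT and 0.005 for each LPS comparison and response difference. The script was tested on simulated data.

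Genes and TSSs were taken from GENCODE M21, and sites or elements whose interval came within 1 kb of a TSS of a protein-coding transcript were called promoters, wherever their leading summit lay. "Intergenic" was outside protein-coding genes. Named were, for each gene, its promoter, its best ranked distal site and the most changed distal sites. Elements named within merged sites, and the Slc35b2 and Tyrobp promoters, were picked after their values were seen. The 10 genes, the lists and the tests were chosen with earlier results of these data known. Replicate numbers did not pair the lists. Alternatives were other peak numbers, site definitions, flanks, covariates, tests and left-out lists, and the one that leaves out both WT 1 h replicate 1-2 and KO 18 h replicate 1 was chosen after seeing the data, as were all fits of elements other than the main one.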

Additional observations from a re-analysis of the deposited data

Results flagged for a closer look

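The distal site of Nfkbia at 18636 bp from the TSS (chr12:55473473-55474912) was the 1 of 100 pairs of a site and an LPS time at which every WT list moved one way against 0 h and every KO list the other. At 0 h it ranked 13940, 14049 and 14102 in WT and 17319, 17833 and 22922 in KO. At 1 h it ranked 14418 and 17650 in WT and 12442, 11685 and 11553 in KO. The 1 h difference in rank score was −0.185 in WT and 0.692 in KO. The difference between the responses was 0.88 with a 95% interval of 0.28 to 1.47. It did not pass in limma (adjusted p = 0.402), nor in the exact permutation test after adjustment (adjusted p = 0.928). The unadjusted permutation p of 0.005 is the smallest that test can give, and it adds nothing here, since the site was picked for lists that moved in opposite directions.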

How the results depend on the processing

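The 21 of 50 sites called at 1 h became 37 of 100 with all deposited peaks, 34 of 62 with summit windows, 39 of 93 within 50 kb of the genes, 5 when a peak had to cover 50% of a site and 2 under all-or-none presence, and ranged from 19 to 23 when 1 list was left out. The 9 called at 18 h became 4 of 25 with the best 10000 peaks, 20 of 100 with all deposited peaks, 2 with 50% cover, 18 within 50 kb, 16 without WT 1 h replicate 1-2 and KO 18 h replicate 1, and 0 under all-or-none presence, and ranged from 8 to 15 when 1 list was left out, with 15 reached without KO 18 h replicate 1. The 18 called between 1 h and 18 h became 4 with 50% cover, 29 with summit windows, 33 within 50 kb, 10 by the exact permutation test and 1 under all-or-none presence, and ranged from 15 to 23 when 1 list was left out. Summit windows, 50 kb and all deposited peaks test more regions by construction, and the best 10000 peaks fewer. The causes of the other shifts were not tested.

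Called sites in KO against WT (0) became 1 without both lists and ranged from 0 to 3, with 3 reached without WT 1 h replicate 3 (Bcl3 promoter, another site of Bcl3 and a site of Nfkbiz). Those for the 1 h response (0) became 1 without both lists and ranged from 0 to 2, again with 2 without WT 1 h replicate 3, and those for the 18 h response (0) became 1 with 50% cover. Replicate numbers did not pair the lists (same-number correlations −0.226 to 0.206, median 0.005, 35 pairs). With the replicate block the counts were 19, 10, 17, 1, 1 and 0 in the order above. All-or-none presence could not be computed for the response differences. Each fit without a WT 1 h list leaves 1 list in that group, whose spread is then taken from the other groups. This holds also for the fit without both lists and for the replicate block, which leaves out WT 1 h replicate 1-2.

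Of 48 called differences at single sites, 37 passed in every fit that left out 1 list, 36 with log2 depth as a covariate, 40 with the replicate block, 45 with all deposited peaks and 11 with 50% cover. Of the alternatives run, only 50% cover turned a direction, at the distal Nfkbia site (18 h against 1 h, 0.02), the distal Nfkbie site (1 h, −0.29) and the Tnip1 intron site at 1830 bp (18 h against 1 h, 0.1).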
